A study of Mus musculus with 8 samples.

Results

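The regions described here are the 6 accessible regions that the deposited table assigns to Gpnmb (3 regions) or to its upstream neighbour 4930563H07Rik (3 regions), of 129304 regions in all. They were found by their gene name in the table. These genes were picked because their acetylation had already been seen to be higher in the knockout, so the H3K27ac values of the 6 regions in knockout and wild type are given below as a description, with no test; intervals on them cover counting error only.

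Acetylation of histone H3 at lysine 27 (H3K27ac) was measured by chromatin immunoprecipitation and sequencing in microglial nuclei from brains of C57BL/6 mice aged 2 years. Wild-type mice (WT) were compared with mice labelled GrnKO, which carry a knockout of Grn, the gene of the lysosomal and secreted protein progranulin. How the allele was made, and the sex of the mice, are not given in the labels used here, and neither group is labelled with any treatment. Fixed nuclei were sorted as positive for PU.1, a transcription factor of myeloid cells, and negative for OLIG2 and NEUN, so that the gate itself does not part microglia from other PU.1-positive cells. Each group had 2 H3K27ac libraries and 2 input libraries (chromatin taken before the immunoprecipitation), each from nuclei pooled from 2 mice. In such pools, more nuclei with the mark and more mark per nucleus cannot be told apart.

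Gpnmb encodes glycoprotein NMB, a membrane glycoprotein of lysosomes, endosomes and the cell surface that is related to the melanosome protein PMEL and can be shed from cells by the protease ADAM10. Its transcription is known to be driven by MiT/TFE transcription factors, the family of MITF, TFEB, TFE3 and TFEC, whose members respond to the state of lysosomes. It is known as a gene of microglia and macrophages that take up lipid or debris. 4930563H07Rik is annotated as a non-coding RNA gene that is transcribed from the opposite strand, away from Gpnmb, so that the 3 regions assigned to it and the upstream region assigned to Gpnmb lie in the stretch between both start sites. H3K27ac marks active promoters and enhancers. An assignment in the table is by distance to a start site and does not show which gene a region acts on.

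The start of Gpnmb lies at position 49036518 of chromosome 6 on the forward strand, and 4930563H07Rik starts at 48999616 on the reverse strand. These sites, as implied by all 6 regions of the table, differed by 0 bp from the RefSeq gene table of GRCm38.p6, and the submitters' processing notes name mm10. Because the region that is strongest of the 6 in GrnKO begins 170 bp after the Gpnmb start, the sequence around that start is shown, from RefSeq (GRCm38.p6, chr6:49036268-49036537, forward strand), with 250 bases before the start and 20 bases from the start on. Capitals mark the match to the AP-1 motif, which begins at base 9 counted from the start.

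Gpnmb start: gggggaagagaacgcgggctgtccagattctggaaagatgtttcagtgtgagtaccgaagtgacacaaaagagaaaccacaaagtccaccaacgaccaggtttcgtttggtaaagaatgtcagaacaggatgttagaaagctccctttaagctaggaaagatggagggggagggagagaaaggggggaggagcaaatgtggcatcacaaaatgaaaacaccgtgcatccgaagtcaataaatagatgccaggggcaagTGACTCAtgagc

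The window of 300 bases searched around the start overlapped 0 listed regions, so that the table holds no acetylation value for these bases. On both strands it was searched for TGANTCA (AP-1, matched as TGACTCA, present in 7.81% of the 32851 promoter windows of this length in the RefSeq table), for CACGTG (E-box, 7.15%), for TCACGTG (a part of the CLEAR element that contains that E-box, 3.77%), for CATGTG (14.2%), for TCATGTG (the M-box core that contains CATGTG, 3.77%) and for GAGGAAG (a PU.1 core, 13.6%). AP-1 was the only one of these 6 motifs with a match at Gpnmb. In the window of 4930563H07Rik, TGANTCA and CATGTG had 1 match each, and the nearest listed region assigned to it was centred 8518 bp from that start.

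Values are scaled tags, that is, sequenced fragments per region of 800 bp at a library total of 10000000, as the authors scaled them. The H3K27ac libraries held between 15491642.5 and 20030832 tags, and the inputs between 4078179 and 14415969. The share of tags in listed regions was 49.4% in WT replicate 1 and 63.3% to 65.7% in the other 3 H3K27ac libraries, so that WT replicate 1 stood apart; results are given without it where they rest on it. Tags summed over the regions of Grn were 1891 and 1938 in the WT libraries and 169.7 and 175 in the GrnKO libraries, in the direction of the labels.

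**Figure D1:**
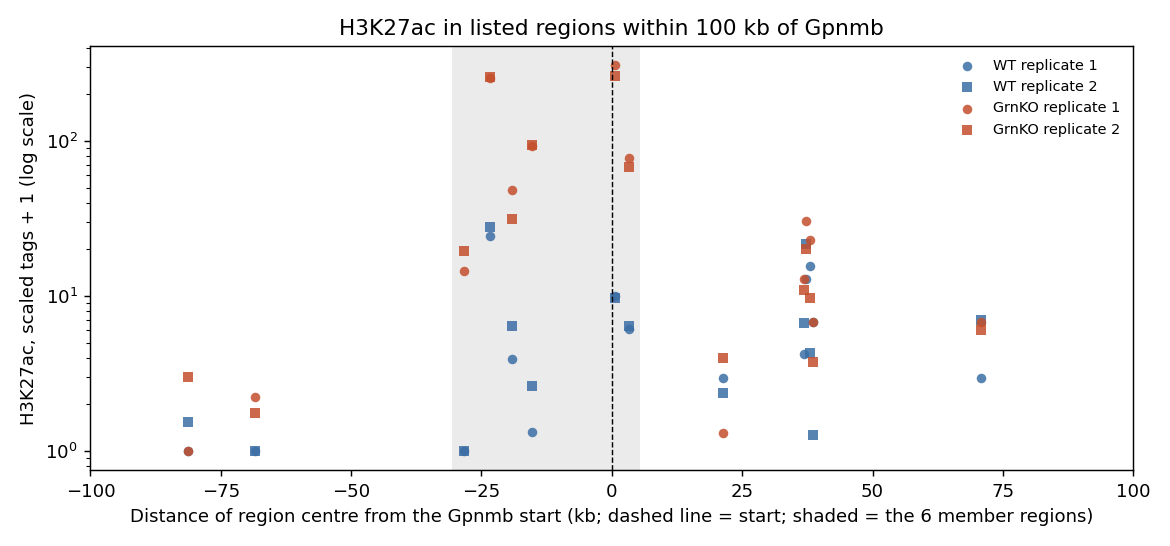
H3K27ac in scaled tags plus 1 (vertical axis, log scale) of every listed region within 100 kb of the Gpnmb start, against the distance of the region's centre from that start in kb (horizontal axis); blue is WT, red is GrnKO, circles are replicate 1 and squares replicate 2. The 6 regions in the shaded stretch have both GrnKO libraries above both WT libraries, and the other 8 regions stay at or under 29.4 scaled tags in every library.

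Across the 6 regions, H3K27ac was higher in both GrnKO libraries than in both WT libraries. This held for 6 of 6 regions, beside 35.8% of the 80728 regions tested across the genome; as the genes were picked on this contrast, nothing is read from the count. Across the genome 6.8% of the tested regions passed as higher in GrnKO and 2.92% as lower (limma, Benjamini-Hochberg adjusted p under 0.05). No WT value exceeded 26.9 scaled tags in any of the 6 regions, and the lowest GrnKO value was 13.46. The regions span 32397 bp, from 49007734 to 49040131, do not overlap one another, and all 6 passed the filter on low tags.

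The region with the most acetylation in GrnKO lay 570 bp downstream of the Gpnmb start, in intron 1 of 10 (chromosome 6, 49036688 to 49037488). Its WT libraries had 9.04 (replicate 1) and 8.68 (replicate 2) scaled tags, against 307 and 261 in those of GrnKO. Both WT libraries were low and close together, and the GrnKO libraries lay far above them with a wider spread. The WT mean of 8.86 ± 0.255 and the GrnKO mean of 284 ± 32.8 (SD, n = 2 libraries) gave a ratio of 32.0, or 27.2 after TMM scaling (a correction for the overall level of each library). Among all listed regions, the mean stood at percentile 48.6 in WT and at percentile 96.4 in GrnKO.

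A second region in the same intron (49039331 to 49040131), centred 3.21 kb downstream of the start on a SINE repeat of type B3A, was weaker. Both WT libraries were low here, with 5.16 and 5.43 scaled tags, and the GrnKO libraries had 76.5 and 67.2. The groups did not overlap, and the ratio of their means was 13.6, or 11.6 after TMM scaling.

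The third region assigned to Gpnmb lay between genes, 15.3 kb upstream of the start (49020865 to 49021665) and 345 bp from an end of Gm52881, a long non-coding RNA gene of the RefSeq table. Either end of Gm52881 (49018518 and 49020520) is nearer to this region, and to the region 19.1 kb upstream, than the start site each is assigned to. The region 15.3 kb upstream held 0.32 and 1.63 scaled tags in WT, which are 0.5 and 3 tags. In GrnKO it held 92.4 and 92.6, which are 151 and 185.5 tags. The WT libraries were therefore at or under the floor of detection, set at 3 tags, while the GrnKO libraries nearly coincided. The ratio of summed tags, adjusted for library totals and with tags rounded to whole numbers, was 78.3 (95% exact interval 30.3 to 289, covering counting error only). On the log2 scale with a pseudocount of 1 its change had rank 1 among 80728 tested regions, and the intron region 570 bp downstream of the start had rank 19. With so few WT tags this order rests on the method: the change was 5.52 here, but 3.93 with a pseudocount of 5, under the 4.19 of that intron region, and by edgeR (6.21) and DESeq2 (6.53) it was under that of the region 28.4 kb upstream (7.73 and 6.97).

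Of the 3 regions assigned to 4930563H07Rik, all intergenic, the strongest lay 23.3 kb upstream of the Gpnmb start and 13613 bp from that of 4930563H07Rik (49012829 to 49013629). Its scaled tags were 23.2 and 26.9 in the WT libraries, and 253 and 259 in the GrnKO libraries. It was the only one of the 6 regions with more than 10 scaled tags in a WT library. The WT mean of 25.045 ± 2.55 stood at percentile 65.9 of all regions, and the GrnKO mean of 256 ± 4.55 (SD, n = 2 libraries) at percentile 95.6. Their ratio was 10.2, or 8.76 after TMM scaling.

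The region 19.1 kb upstream (49017058 to 49017858) held 2.90 and 5.43 scaled tags in WT and 47.4 and 30.5 in GrnKO. Its GrnKO libraries differed the most of the 6 regions, with a value in replicate 2 that was 0.642 times that in replicate 1, and still lay above both WT libraries; the ratio of the means was 9.35. The farthest region, 28.4 kb upstream (49007734 to 49008534), held 0 tags in both WT libraries and 13.5 and 18.5 scaled tags in GrnKO, from 22 and 37 tags. With the floor of 3 tags set per library for WT, this is at least 8.96-fold higher.

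**Figure D2:**
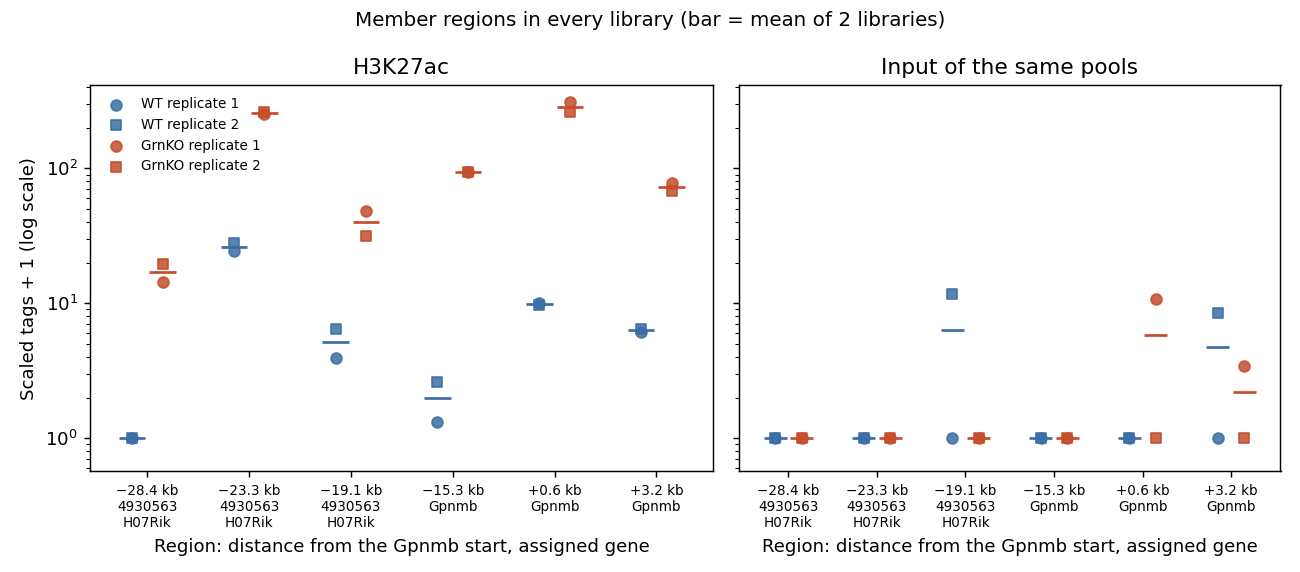
Scaled tags plus 1 (vertical axis, log scale) of the 6 regions in the 4 H3K27ac libraries (left) and in the 4 inputs of the same pools (right); blue is WT, red is GrnKO, circles are replicate 1, squares replicate 2, and each short bar is the mean of 2 libraries. In H3K27ac the groups are apart in all 6 regions, while no input value is above 10.7 scaled tags.

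Summed over its 3 regions, Gpnmb held 14.5 and 15.7 scaled tags in WT and 476 and 420.4 in GrnKO. The WT mean of 15.1 ± 0.863 and the GrnKO mean of 448 ± 39.3 (SD, n = 2 libraries) gave a ratio of 29.6, or 25.3 after TMM scaling. For 4930563H07Rik the WT sums were 26.1 and 32.3 and the GrnKO sums 314 and 308, with means of 29.2 ± 4.34 and 311 ± 3.90 (SD, n = 2 libraries) and a ratio of 10.6, or 9.15 after TMM scaling. In WT the upstream gene thus had the higher sum in both libraries, and in GrnKO Gpnmb had it in both. By log2 change the sums ranked 2 (Gpnmb, log2 change 4.61) and 33 (4930563H07Rik, 3.19) among 15380 genes; without WT replicate 1 these log2 changes were 4.71 and 3.19.

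The tags of the locus are also described by their division among the 6 regions. The region 23.3 kb upstream held 57.1% of them in WT replicate 1 (95% exact Clopper-Pearson interval 44.0 to 69.5%, for counting error) and 55.9% in WT replicate 2 (45.8 to 67.3%), and 32.0% and 35.6% in the GrnKO libraries. Against this, the intron region 570 bp downstream of the start held 22.2% and 18.1% in the WT libraries, and 38.9% and 35.8% in those of GrnKO. The region 15.3 kb upstream went from 0.794% and 3.39% to 11.7% and 12.7%. The other 3 regions differed less, from 0% in both WT libraries to 1.70% and 2.54% at 28.4 kb upstream, from 7.14% and 11.3% to 6.00% and 4.18% at 19.1 kb upstream, and from 12.7% and 11.3% to 9.68% and 9.22% at 3.21 kb downstream. In those 3 regions the counting intervals of WT and GrnKO libraries overlapped, except between WT replicate 2 (5.59 to 19.9%) and GrnKO replicate 2 (3.21 to 5.33%) at 19.1 kb upstream. As shares of 1 total, the values are not independent of one another. The WT shares rest on 63 and 88.5 tags in all, and the GrnKO shares on 1291 and 1459.5.

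**Figure D3:**
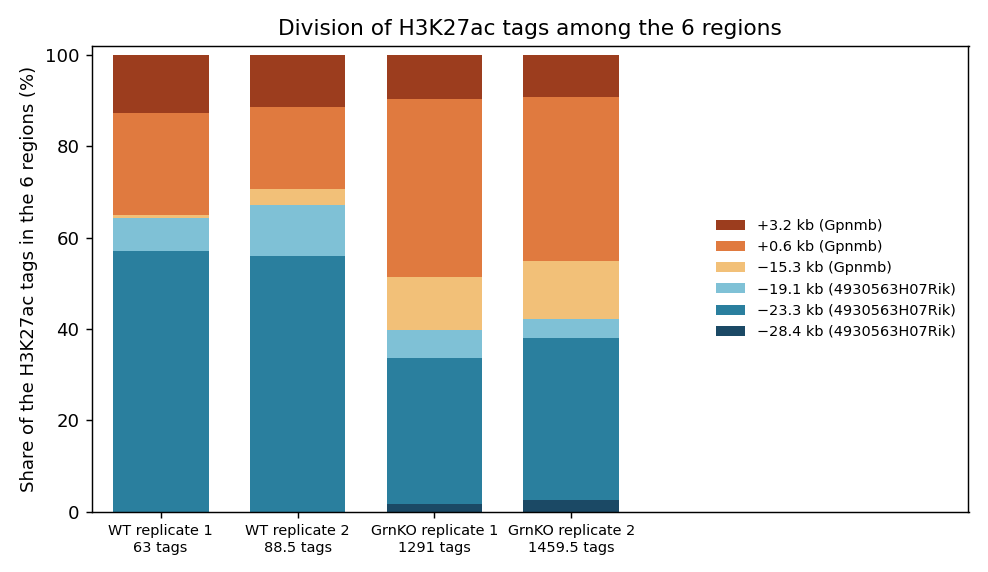
Share of the H3K27ac tags of the locus in each of the 6 regions, in percent (vertical axis), for the 4 libraries (bars); colours are regions by their distance from the Gpnmb start, and the number of tags behind each bar stands under it. The region 23.3 kb upstream takes over 55% of both WT bars and under 36% of both GrnKO bars.

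The neighbourhood of the 6 regions was read from the other listed regions. Of 8 other listed regions within 100 kb of the Gpnmb start, 5 had enough tags to be tested and 0 passed the threshold (limma, adjusted p under 0.05 over all regions, which 9.71% of tested regions passed). By edgeR and by DESeq2 0 passed as well, and 0 had an unadjusted limma p under 0.05. At that background a count of 0 of 5 is not a result. The closest before the locus was 68.5 kb upstream and the closest after it 21.3 kb downstream of the start. The latter (49057444 to 49058244) lies at the 3′ end of Gpnmb itself, although the table assigns it to the next gene, Malsu1, which encodes a protein of mitochondrial ribosome assembly. It held 1.94 and 1.36 scaled tags in WT and 0.31 and 3.00 in GrnKO, with overlapping groups. The strongest region at the Malsu1 promoter held 11.9 and 20.6 in WT and 29.4 and 19.0 in GrnKO (log2 change 0.35, SE 0.46, limma adjusted p = 0.711), and its groups overlapped too. In 2 of the 8 regions both GrnKO libraries were above both WT libraries, at low levels. One is a weaker region at the Malsu1 promoter (49073025 to 49073825), with 3.23 and 5.70 in WT against 11.9 and 9.98 in GrnKO (limma adjusted p = 0.456, log2 change 0.97, SE 0.73). The region 68.5 kb upstream had 0 in both WT libraries against 1.22 and 0.75, too few tags for a test.

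Acetylation above input was then examined in the WT nuclei. Picking genes that are higher in GrnKO favours low WT values. Nothing is therefore read from the count of 1 of 6 regions above input in WT, to which the authors' scaling added the intron region 570 bp downstream. The count stands beside 61.8% of 86528 regions tested (limma, adjusted p under 0.05, higher in H3K27ac). That background itself was 30334 of 100906 regions without WT replicate 1 and 32406 of 98117 without WT replicate 2. As the WT values entered the choice of genes, the regions are given by their values alone. The region 23.3 kb upstream, with 36 and 49.5 tags in WT H3K27ac, had 0 tags in both WT inputs (log2 difference 4.81, SE 0.32; 2.68 with a pseudocount of 5). The intron region 570 bp downstream of the start, with 14 and 16 tags in WT H3K27ac, had 0 in both WT inputs as well (3.40, SE 1.35; 1.54 with a pseudocount of 5). With inputs at 0 these differences are set by the pseudocount. The differences in the other 4 regions were between 0 and 0.93. The WT inputs are shallow, with a floor of 7.36 and 3.21 scaled tags in replicates 1 and 2, and the first of these is above the H3K27ac value of WT replicate 1 in each of these 4 regions.

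The inputs themselves were compared between genotypes, since they did not enter the choice of genes. Summed over the regions of Gpnmb they held 0 and 7.49 scaled tags in WT and 12.1 and 0 in GrnKO, and over those of 4930563H07Rik 0 and 10.7 in WT against 0 in both GrnKO inputs. The groups overlapped for both genes (exact permutation test, two-sided, p = 1 for each; 2 libraries against 2 allow no p under 0.3333).

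The other genes of the Gpnmb pathway were read from gene sums over the same libraries, where 14.4% of 15380 genes passed the threshold 9.54% as higher and 4.88% as lower in GrnKO. The lists are of known genes and were set with earlier results of these data in view. Of 12 tested MiT/TFE factors and regulators of their entry into the nucleus, 8 were higher and 0 lower (limma; 0 lower also by edgeR, by DESeq2 and at an unadjusted p under 0.05), with a median log2 change of 0.48 beside -0.01 over all genes. Without GrnKO replicate 1 or without GrnKO replicate 2, 5 passed; Mitf and Tfeb were lost in both cases, Rragc without replicate 1 and Fnip1 without replicate 2. Among the factors, Tfec, a family member found mainly in myeloid cells, rose from 341 and 344 scaled tags in WT to 1038 and 884 in GrnKO (log2 change 1.29, SE 0.14, limma adjusted p = 2.42e-05). Mitf (0.38, limma adjusted p = 0.0102) and Tfeb (0.37, limma adjusted p = 0.00933) rose less, and neither passed with the authors' scaling alone (log2 changes of 0.57 and 0.56, limma adjusted p = 0.142 and 0.205). The log2 change of Tfe3 was 0.14 and did not pass.

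Among the regulators, Rragd, a Rag GTPase that brings MiT/TFE factors to the lysosome, went from 13.9 and 26.04 scaled tags in WT to 262 and 217 in GrnKO (log2 change 3.40, SE 0.30, limma adjusted p = 2.9e-06). Its 2 GrnKO libraries were far above the WT libraries, and its log2 change lay between those of 4930563H07Rik and Gpnmb. Fnip2, a partner of folliculin, rose from 695 and 1032 to 2385 and 2417 (1.31, limma adjusted p = 2.63e-06). Its paralogue Fnip1 (0.57), the Rag GTPase Rragc (0.62) and the lysosomal calcium channel gene Mcoln1 (1.11) were higher as well. The log2 changes of Flcn, which encodes folliculin, Rraga and Lamtor1 were 0.23, 0.02 and 0.05 and did not pass.

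Of 32 tested lysosomal genes of the kind that MiT/TFE factors bind at CLEAR elements, 17 were higher and 1 lower, with a median log2 change of 0.57. The smallest p belonged to Hpse, the heparan sulfate-cleaving enzyme heparanase (2.36, SE 0.20, limma adjusted p = 2.65e-06), Lipa, the lysosomal acid lipase (1.24, limma adjusted p = 5.67e-06), and Atp6v1a, a proton pump subunit (1.21, limma adjusted p = 5.75e-06). The gene that was lower, named after its value was seen, was Uvrag, which acts in autophagy and endosome traffic (-0.31, limma adjusted p = 0.0476), and it did not pass with the authors' scaling, without the filter on low tags, with non-overlapping regions, or with WT replicate 1 or a GrnKO replicate left out (limma adjusted p from 0.0533 to 0.848). The remaining 14 did not pass. Among these was Psap, which encodes the precursor of the saposins (-0.03), named after its value was seen.

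Of the genes for partners of GPNMB, its protease and its relatives, 6 of 8 could be tested and 2 were higher, a count that was 1 by edgeR and 1 with GrnKO replicate 1 or 2 left out. Itga5, an integrin chain that binds GPNMB, rose from 416 and 417 scaled tags in WT to 817 and 962 in GrnKO (log2 change 0.90, SE 0.14, limma adjusted p = 0.000539). Sdc4 (0.71), Cd44 (-0.04), Itgb1 (-0.29) and Adam10 (-0.31) did not pass. The relatives Pmel and Tmem130 had 1 region each, too low to be tested.

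Genes of the damage-associated state of microglia, in which Gpnmb is known to be raised, were higher for 12 and lower for 1 of 20 tested, with a median log2 change of 0.51. The leading ones were Igf1, a growth factor (1.68, SE 0.12, limma adjusted p = 7.94e-07), Fabp5, a fatty acid carrier (1.404, limma adjusted p = 2.08e-05), and Lgals3, the lectin galectin-3 (0.92, limma adjusted p = 4.41e-05). Lpl, lipoprotein lipase, was the 1 lower gene and is named after its value was seen (-0.70, limma adjusted p = 0.0147); 0 were lower with the authors' scaling or without GrnKO replicate 2, and 2 with WT replicate 1 or 2 left out. Lpl itself had a limma adjusted p of 0.188 and 0.165 in the first 2 cases. Spp1 (-0.20), Itgax (0.28) and Trem2 (0.30) did not pass. None of the genes in these 4 lists had a log2 change as large as that of Gpnmb.

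**Figure D4:**
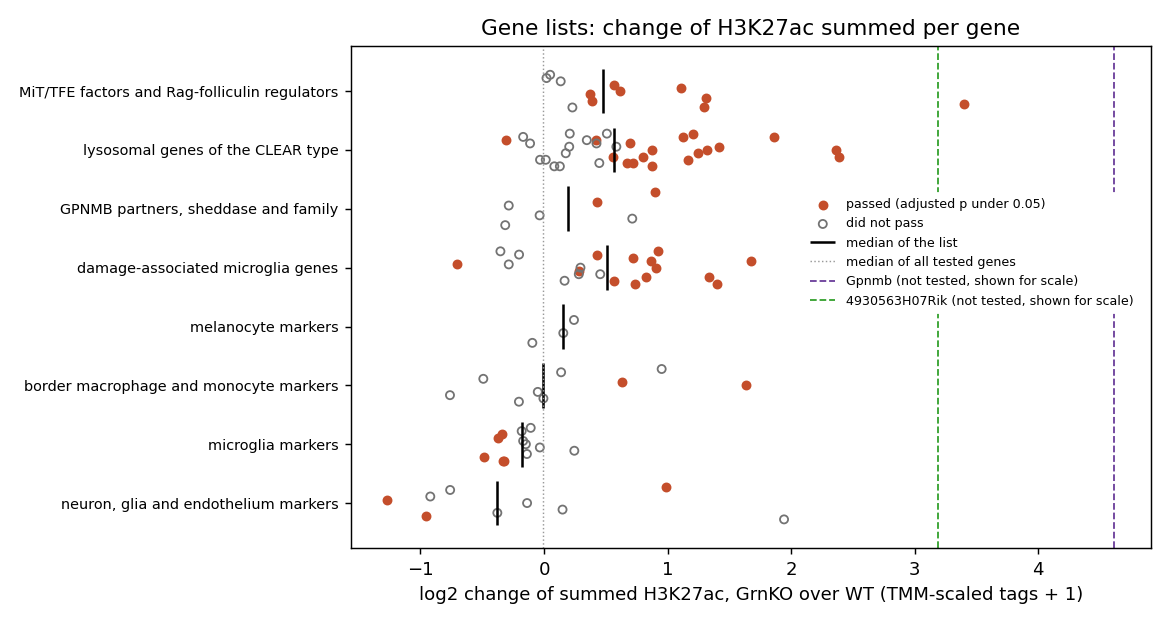
log2 change of H3K27ac summed per gene in GrnKO over WT (horizontal axis, TMM-scaled tags plus 1) for the tested genes of 8 lists (rows); each point is a gene, filled where it passed and open where it did not, the black bar is the list's median and the dotted line the median of all genes. The dashed lines show 4930563H07Rik (3.19) and Gpnmb (4.61), to the right of most and all listed genes.

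Markers of the sorted cells and of others were read beside these values. The 12 microglia markers, Spi1 (which encodes PU.1) among them, summed to 53852 and 71807 scaled tags in WT and 59848 and 60534 in GrnKO; by limma 0 were higher (1 at an unadjusted p under 0.05, and 0 by edgeR and by DESeq2) and 5 lower in GrnKO, led by Cx3cr1 (-0.38, limma adjusted p = 0.00241), Sall1 (-0.48, limma adjusted p = 0.00306) and Siglech (-0.34, limma adjusted p = 0.0256). Their median log2 change was -0.17 with TMM scaling and 0.01 with the authors' scaling, which moved the median of all genes from -0.01 to 0.18, and with the latter scaling 0 of the 12 passed. Cx3cr1 and Siglech did not pass with GrnKO replicate 1 or 2 left out, nor Sall1 without GrnKO replicate 1 (limma adjusted p from 0.0693 to 0.328). The count of lower markers was 0 without GrnKO replicate 1, 1 without GrnKO replicate 2, 8 without WT replicate 1, 6 without WT replicate 2 and 2 without the filter on low tags, and 1 marker was higher without WT replicate 2. Border macrophage and monocyte markers, which are PU.1-positive cells too, summed to 1390 and 1693 in WT and 2211 and 1959 in GrnKO, and 2 of 9 tested were higher. These were Ms4a7, a membrane protein gene (from 140.1 and 152 to 595 and 454; 1.63, limma adjusted p = 1.97e-05), and F13a1 (0.63, limma adjusted p = 0.0378), which did not pass without GrnKO replicate 1 (limma adjusted p = 0.547) or 2 (0.0518). The other 7 tested markers of this list did not pass. These were Mrc1 (0.14), Lyve1 (-0.76), Cd163 (-0.05), Pf4 (-0.0048), Ccr2 (-0.49), Clec10a (0.95) and Cbr2 (-0.20), while Ly6c2 was too low to be tested. The part of border macrophages and monocytes in the Gpnmb result was not tested.

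Melanocytes express Gpnmb as well. Of 7 melanocyte markers 3 could be tested and 0 passed (limma, and 0 also by edgeR, by DESeq2 and at an unadjusted p under 0.05). Over all genes 14.4% passed, and at that background a count of 0 of 3 is not a result. Their sum was 179 and 147 in WT and 179 and 195 in GrnKO; Tyr was not in the table, and Pmel, Mlana and Slc45a2 had mean sums of at most 5 scaled tags. Markers of neurons, other glia and endothelium summed to 814 and 968 in WT and 1286 and 1281 in GrnKO. Of 9 tested, 1 was higher and 2 lower, beside 9.54% and 4.88% of all genes. The higher gene was Flt1 (from 408 and 440.2 to 949 and 970, log2 change 0.99, limma adjusted p = 0.000104). Cldn5, also listed for endothelium, had 17.4 and 23.1 in WT and 24.8 and 26.2 in GrnKO (0.15) and did not pass. The oligodendrocyte gene Mog (-1.27, limma adjusted p = 0.00129) and the neuronal gene Syt1 (-0.95, limma adjusted p = 0.0238) were lower. Syt1 did not pass with the authors' scaling (limma adjusted p = 0.105). Its log2 change was -0.82 without WT replicate 2, and -0.86 and -1.04 without GrnKO replicates 1 and 2. The part of these cells in the Gpnmb result was not tested.

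Genes with a pattern like that of Gpnmb were ranked by the Euclidean distance between log2 sums over the 4 H3K27ac libraries, each gene centred on its own mean, a measure that rests on 4 libraries and mostly on the size of the difference between genotypes. The 5 closest of 15380 genes, apart from 4930563H07Rik, which had rank 21 (distance 1.43, against a median of 4.65), were Mir182 (distance 0.546), Cdh4 (0.649), Sox7 (0.721), Ccdc182 (0.748) and Atp2c2 (0.999). They lie on chromosomes 6, 2, 14, 11 and 8, and the regions of Mir182 on chromosome 6 begin at 30135351, far from Gpnmb. Cdh4, which encodes a cadherin, had the sum closest to that of Gpnmb in the GrnKO libraries, with 26.8 and 23.6 scaled tags in WT and 504 and 447 in GrnKO. Sox7, a transcription factor gene, had the closest WT mean of the 5 and held 14.9 and 17.4 in WT and 297 and 279.8 in GrnKO. Ccdc182 held 0 in both WT libraries and 15.3 and 14.0 in GrnKO, and its log2 change depends on the pseudocount (3.88 with 1, 1.90 with 5).

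**Figure D5:**
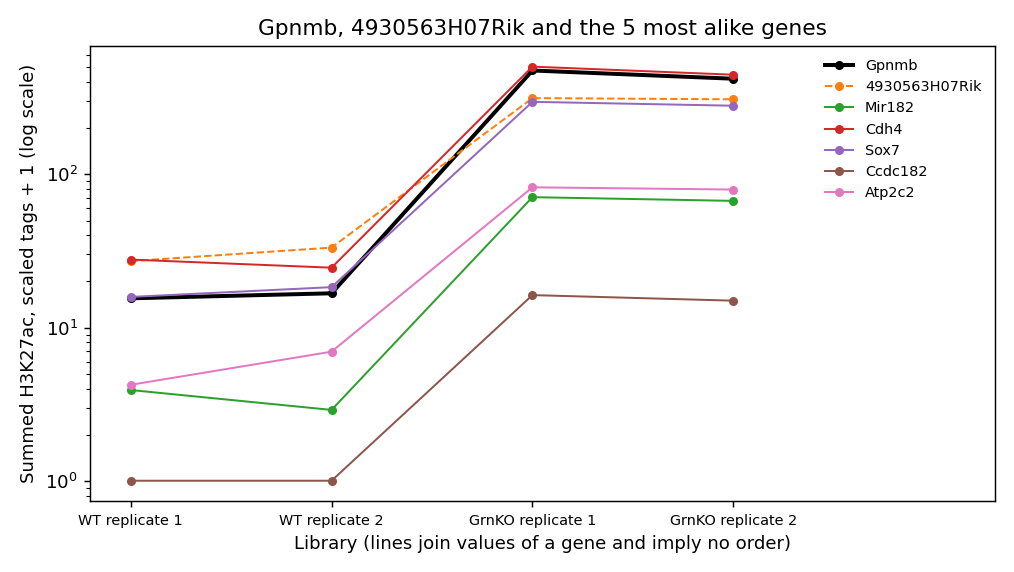
Summed H3K27ac in scaled tags plus 1 (vertical axis, log scale) of Gpnmb, 4930563H07Rik and the 5 genes closest to Gpnmb in pattern, in the 4 libraries (horizontal axis). Each line is a gene and implies no order of the libraries; all 7 genes are higher in both GrnKO libraries, at levels that differ between genes.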

How the data were processed

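H3K27ac and input libraries were read from 1 table of 129304 regions. Its values are a signal: per the file headers, the authors counted tags in 800 bp windows and scaled them to 10000000 tags per library. The submitters' processing notes name Bowtie2, HOMER, DESeq2 and mm10 without roles; duplicate handling is not given in the sources used here. The source label of the regions names other lines than GrnKO, so accessible regions specific to GrnKO may not be listed. Value times library total gave whole read ends, at 2 per tag, for 100% of values (within the rounding of 2 decimals).

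The members, lists, motifs and tests were chosen with earlier results of these data known. limma 3.58.1 (R 4.3.3; lmFit, eBayes with trend) was fitted to log2(value + 1) after TMM scaling (edgeR 4.0.16), on regions kept by filterByExpr with a minimum of 10 (80728 regions) or on sums per gene (15380 genes), with Benjamini-Hochberg adjustment at 0.05. TMM factors of H3K27ac libraries were 0.825 to 1.08. For H3K27ac against input all 8 libraries shared 1 spread, and TMM was computed within each kind of library; the input factors ran from 0.52 to 2.50, so values with the authors' scaling are given too. H3K27ac and input of a number come from the same pool, which pairs them. Across genotypes a number joins different mice. With 2 pools a group, p-values measure the spread between pools. Exact permutation tests used scipy 1.17.1. Named genes are, per list, the 3 past the threshold with the smallest p, all that passed among MiT/TFE and partner genes, and the 5 most like Gpnmb. Genes named as not passing were picked after their values were seen. Some genes of the lists enter the counts but are not reported here by name. Alternatives were edgeR, DESeq2 1.42.0 (tags rounded), other scaling, pseudocount 5, no filter, a replicate block, non-overlapping regions and leaving out each library. The limma, edgeR and DESeq2 fits of GrnKO against WT were tested on simulated tags with 1 common spread. There limma recovered 0% of regions with a log2 change of 1 and 55.9% of those with 2, in either direction. For gene sums it recovered 9.09% and 84.85%, so features that did not pass may still differ. The fit against input and the alternatives of scaling, block and left-out libraries were not tested in this way. Intervals and floors cover counting error only.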

Additional observations from a re-analysis of the deposited data

How the results depend on the processing

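The log2 change of Gpnmb (4.61) was 4.798 with the authors' scaling and 4.32 with a pseudocount of 5, and that of 4930563H07Rik (3.19) was 3.38, 3.04, 3.23 with edgeR, 3.23 with DESeq2 and 3.18 to 3.21 with 1 library left out. The count of regions that passed (7842, of which 5488 higher) ran from 2171 to 13647 (1810 to 9534 higher) with 1 library left out, and that of genes (2218, 1468 higher) from 953 to 3419 (745 to 2216 higher). The lowest counts came without GrnKO replicate 1 and the highest without WT replicate 2; the lone library of a group is then assumed to vary like the other group. Of the regions that passed, 70.0% were higher with TMM scaling, 95.2% with the authors' scaling, which puts the median of all regions at 0.22, and 80.7% without the filter on low tags; of the genes 66.2% and 90.8%. Blocking on the replicate number, 11391 regions (7403 higher) and 2977 genes (1841 higher) passed. Same-numbered libraries of the 2 genotypes correlated in their deviations at r = 0.034 over regions. With 2 libraries a group this compares 1 difference per genotype, so it cannot settle whether libraries of the same number share a batch. The count of regions above input in WT (53488) was 30334 to 32406 with 1 WT replicate left out. In the region 570 bp downstream the difference from input was 3.30 with the authors' scaling, the only setting in which that region passed. The difference was 3.40 with TMM scaling and 1.54 with a pseudocount of 5. In the region 19.1 kb upstream it was -0.15 with a pseudocount of 5 and -1.0001 to 2.14 with 1 WT replicate left out, and in the region 3.21 kb downstream -0.53 to 2.82. The input difference of Gpnmb was -3.75 to 8.40 scaled tags (-1.42 without WT replicate 1). Of the MiT/TFE list 5 to 8 were higher with 1 library left out, and of the partner genes 1 to 3, with 1 by edgeR and 1 with non-overlapping regions. The cause of these changes was not tested. Of 694 values under alternatives, 573 stayed in the same direction and on the same side of the test's limit, or within the replicate spread or 1.5 times the count. Depth limits the WT values of 2 regions at or under 3 tags in both libraries, and the input contrasts.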
